A study of Mus musculus with 18 samples.

Results

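Naive B cells (nB) of mouse lymph nodes were compared with and without Dnmt3a and Dnmt3b, to see what loss of de novo DNA methylation does to gene expression before any immunization. The comparison used the 6 nB libraries of a series of 18, chosen by cell type and genotype in the labels and not by any measured value. Dnmt3-deficient mice carried 1 allele of a Cre active in B lineage cells, their Dnmt3-sufficient littermates carried none, and both genotypes were homozygous for the floxed alleles (Dnmt3a fl/fl, Dnmt3b fl/fl), on the background labelled B6;129S4-Dnmt3atm3.1Enl Dnmt3btm5.1Enl/Mmnc. Each genotype had 3 libraries, replicates 1 and 2 from female mice and replicate 3 from a male mouse, 8 to 12 weeks old when experiments began. Cells were sorted as B220+ GL7− Fas− from inguinal and periaortic lymph nodes, with cells stained for CD11b, CD11c, CD90.2 or Ly6-G gated out, and 5000 cells went into each library. Cre acts from the pro-B cell stage, so deletion long precedes the cells sampled. The 12 other libraries came from mice immunized with phycoerythrin (PE) in complete Freund's adjuvant. Of these, 6 came from PE-specific B cells of germinal centers (GCB) and 6 from plasma cells of the bone marrow (BMPC). They served as a reference for what is particular to nB. Each GCB sample pooled 2 mice, so its spread is not one between single mice.

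Dnmt3a and Dnmt3b write cytosine methylation onto DNA that carried none, whereas Dnmt1 copies existing methylation at each round of replication. Naive follicular B cells are long-lived resting cells that circulate between blood and lymph nodes, hold a B cell receptor and MHC class II at high levels, and do not divide until they meet antigen.

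The 6 libraries held 6692516 to 8987922 reads on genes, and 9303 to 9682 genes exceeded 1 FPKM (reads per gene scaled to its exon length and to the library's reads). None of 17 genes used by every cell was at 0 in any library. Spearman correlations ranged from 0.875 to 0.926 within a genotype and from 0.883 to 0.915 between genotypes. They are taken across genes, and genes are not replicates. Read counts of no 2 libraries of a genotype agreed within sampling noise (smallest chi-square over its degrees of freedom 36.2). The median SD of log2(FPKM + 1) was 0.37 among the Dnmt3-deficient and 0.44 among the Dnmt3-sufficient libraries (n = 3 each).

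The labelled cell type was checked against gene lists. A list of 24 genes of resting follicular B cells summed to 5621 to 5939 FPKM in Dnmt3-sufficient and 5824 to 5880 FPKM in Dnmt3-deficient nB, against 1289 to 1599 FPKM in GCB and 275 to 466 FPKM in BMPC. Germinal center genes summed to 60.2 to 95.5 FPKM in nB and 1535 to 1680 FPKM in GCB, and plasma cell genes to 339 to 534 FPKM in nB and 19056 to 51706 FPKM in BMPC. All 10 neutrophil markers were at 0 in all 6 libraries. Low levels of other cells' genes were present in both genotypes. T cell markers summed to 46.8 to 114 FPKM in Dnmt3-deficient and 35.2 to 138 FPKM in Dnmt3-sufficient libraries, macrophage markers to 23.3 to 47.1 and 1.70 to 74.0 FPKM, and dendritic cell markers to 44.9 to 153 and 37.3 to 118 FPKM. In sorted bulk samples, fewer cells of a type and less RNA per cell cannot be told apart.

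The targeted genes were low in both genotypes. Dnmt3a was at 4.33, 2.24 and 3.86 FPKM in Dnmt3-deficient replicates 1 to 3 and 5.18, 3.48 and 2.35 FPKM in Dnmt3-sufficient replicates 1 to 3. Dnmt3b was at 0.521, 8.15 and 2.996 FPKM against 1.18, 4.33 and 6.41 FPKM. The genotypes overlapped for both genes. The difference (deficient minus sufficient, on log2(FPKM + 1)) was -0.05 for Dnmt3a, with a 95% interval of -1.10 to 1.01, and -0.21 for Dnmt3b, with an interval of -1.72 to 1.31. Only exons of the catalytic domain are floxed, so these values, taken over all exons, do not check the deletion.

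The receptor and antigen presentation program of the naive cell was measured most tightly. Cd79a and Cd79b, the signaling chains of the B cell receptor, had high levels in every library. Cd79a was at 2291, 2635 and 2046 FPKM across Dnmt3-deficient replicates against 2294, 2513 and 2351 FPKM in the Dnmt3-sufficient ones, and Cd79b at 2908, 3129 and 2683 FPKM against 3269.9, 2995 and 2618 FPKM. The genotypes overlapped for both, with changes of -0.04 (95% interval -0.28 to 0.20) and -0.02 (-0.26 to 0.21) on the log2 scale. Cd74, the invariant chain that escorts MHC class II, had the narrowest interval of the genes with a mean above 100 FPKM, a change of -0.08 (-0.26 to 0.09). All 10 MHC class II genes and all 19 receptor signaling genes tested had 95% intervals that lay within a 2-fold change in either direction. Of all 10257 genes tested, 34.6% (3547) had such an interval, and this share depends on level. No receptor signaling gene passed, but 1 was higher and 1 lower at an unadjusted p under 0.05 in limma, against 3.09% and 2.04% of all genes. Without overlap, 1 was higher and 2 were lower, against 4.93% and 4.58% of all genes. Smaller differences within the receptor list are thus not excluded.

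The 24 follicular genes, all tested, had a median change of 0.01 on the log2 scale, where the median of all genes tested was 0.02. Their summed level did not differ beyond the spread of libraries (exact two-sided permutation p = 1, where 3 against 3 libraries allow no less than 0.1). None had an unadjusted p under 0.05 in limma, and 21 had intervals within 2-fold. Fcer2a (CD23), the low-affinity IgE receptor of follicular cells, was at 622, 681 and 720 FPKM against 559, 634 and 767 FPKM, and the genotypes overlapped. For Ccr7, the chemokine receptor that holds cells in T cell zones, every Dnmt3-deficient library (172, 164 and 189 FPKM) lay above every Dnmt3-sufficient library (148, 120 and 161 FPKM), by 0.30 on the log2 scale (-0.08 to 0.68). Ccr7 was the single follicular gene whose genotypes did not overlap, where 4.93% of all genes were higher without overlap.

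The 3 follicular genes whose intervals reached beyond 2-fold were Bach2, Ltb and Klf3. Bach2, a repressor that holds back plasma cell differentiation, was at 13.3, 11.5 and 17.03 FPKM against 26.5, 14.7 and 21.2 FPKM. The genotypes overlapped and the interval of -1.25 to 0.21 around a change of -0.52 leaves room for a fall of more than 2-fold. Ltb, which encodes lymphotoxin beta, was at 62.1 FPKM in Dnmt3-deficient replicate 3 and between 9.24 and 18.5 FPKM in the other libraries, with an interval of -0.65 to 1.75. Klf3 had an interval of -0.63 to 1.06. Klf2, a factor of lymphocyte quiescence and trafficking, had a change of 0.01 (-0.81 to 0.83), from 22.9, 28.0 and 14.5 FPKM against 31.1, 12.7 and 23.0 FPKM.

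**Figure D1:**
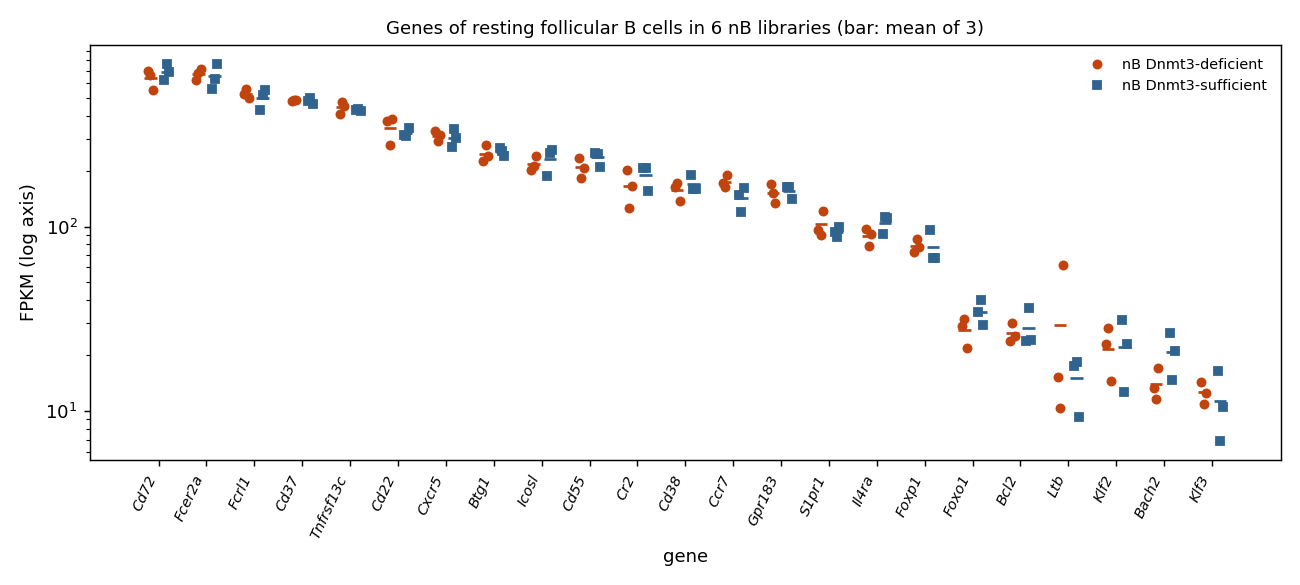
FPKM (log axis) of 23 of the 24 genes of resting follicular B cells, ordered by mean level, in the 3 Dnmt3-deficient (circles) and 3 Dnmt3-sufficient (squares) nB libraries, with bars at group means. The genotypes overlap for every gene but Ccr7, and Ltb has 1 Dnmt3-deficient library at 62.1 FPKM.

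The transcription factors of B lineage identity showed the same closeness in level. Pax5, which commits cells to the lineage, was at 64.9, 57.2 and 52.6 FPKM against 47.7, 54.1 and 55.9 FPKM, a change of 0.14 (95% interval -0.32 to 0.60). Ebf1, which acts upstream of it, was at 112, 130 and 104 FPKM against 94.5, 120 and 137 FPKM. The genotypes overlapped for both. Of 15 factors tested, 12 had intervals within 2-fold and none had an unadjusted p under 0.05 in limma. Without overlap, 1 factor was higher, against 4.93% of all genes. Summed over the list, Dnmt3-deficient libraries held 1346 to 1365 FPKM and Dnmt3-sufficient libraries 1295 to 1335 FPKM, which did not overlap but differed by 0.04 on the log2 scale (exact two-sided permutation p = 0.1, the smallest possible).

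Genes that respond to antigen were also compared, since activated cells would differ from resting ones. Of 24 activation genes, 19 passed the filter on low values and none had an unadjusted p under 0.05 in limma, while 9 had intervals within 2-fold. Of the 19, 14 had a change above 0 and 5 below, with a median of 0.20 where all genes tested had 0.02. The list summed to 969 to 1134 FPKM in Dnmt3-deficient and 944 to 1027 FPKM in Dnmt3-sufficient libraries (exact two-sided permutation p = 0.3). Cd83, an early surface marker of activation, was at 426, 620 and 637 FPKM against 424, 482 and 466 FPKM. Myc, which drives growth after activation, was at 21.1, 22.0 and 24.9 FPKM against 15.6, 22.3 and 20.2 FPKM. Egr1, an immediate early gene of receptor signaling, was at 4.56, 7.89 and 5.79 FPKM against 1.95, 5.74 and 0.217 FPKM, and its interval of -0.08 to 2.61 does not exclude a rise of more than 4-fold. The genotypes overlapped for all 3 genes.

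Cell cycle genes were low in both genotypes. Of 12 listed, 8 were tested, and their summed level was 68.9 to 78.0 FPKM in Dnmt3-deficient and 53.8 to 64.8 FPKM in Dnmt3-sufficient nB, against 2219 to 2476 FPKM in GCB. The nB sums did not overlap (exact two-sided permutation p = 0.1, the smallest possible). Rrm2, a subunit of ribonucleotide reductase, was at 5.63, 4.71 and 7.98 FPKM against 0, 4.26 and 0.766 FPKM, and Top2a, a topoisomerase of dividing cells, at 4.61, 7.12 and 1.97 FPKM against 1.10, 0.141 and 1.76 FPKM. Neither passed (limma, Benjamini-Hochberg adjusted p = 0.953 for both), although both were without overlap and had an unadjusted p under 0.05. Of all genes, 4.93% were higher without overlap and 3.09% were higher at an unadjusted p under 0.05. Only 1 gene of the list was higher at that level without Dnmt3-sufficient replicate 1 or 2, and likewise without any 1 of the Dnmt3-deficient replicates.

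Of 14 genes of the methylation machinery, 12 were tested, none had an unadjusted p under 0.05 in limma and 3 had intervals within 2-fold. Without overlap, 1 was lower, against 4.58% of all genes. Dnmt1 was at 17.2, 9.70 and 18.4 FPKM against 16.1, 15.6 and 9.59 FPKM, with overlapping genotypes and a change of 0.11 (95% interval -0.70 to 0.92). Dnmt3l, the catalytically inactive partner of Dnmt3a in germ cells, was at 0 in all 6 libraries. Germline genes that methylation helps keep silent in somatic cells were at or near 0. Of 19 germline genes in the table, 13 were at 0 in all 6 libraries and none passed the filter for testing. The highest value of any was 2.75 FPKM, for Ddx4, a helicase of germ cells, in Dnmt3-sufficient replicate 2. Of 20 imprinted genes, 11 were at 0 throughout and 5 exceeded 1 FPKM in any library, up to 18.1 FPKM for Peg13. The filter left 3 imprinted genes, none with an unadjusted p under 0.05 in limma. Of these, 1 was lower without overlap, against 4.58% of all genes.

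The size of change that the data can exclude was read from the 95% interval of each gene. The median half-width was 0.91 on the log2 scale, or 1.89-fold, over all genes tested. It fell from 2.46-fold for genes with a mean of 1 to 3 FPKM to 2.11-fold at 3 to 10, 1.73-fold at 10 to 30, 1.48-fold at 30 to 100 and 1.304-fold above 100 FPKM. A change of more than 2-fold in either direction lay outside the interval for 0% of genes at 1 to 3 FPKM, 5.73% at 3 to 10, 41.2% at 10 to 30, 79.9% at 30 to 100 and 98.4% of the 831 genes above 100 FPKM. A change of more than 4-fold lay outside it for 87.6% of all genes, and one of more than 1.5-fold for 8.28%. When a change within 2-fold was tested directly in both directions, 2725 genes (26.6%) reached an adjusted p of 0.05 or less in limma, among them 20 of the 24 follicular genes and all of the receptor and MHC class II genes. Intervals are on log2(FPKM + 1), which understates the change of genes near or below 1 FPKM, so a low gene can change by more than its interval states.

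The gene with the narrowest interval at each level shows what these figures mean. Lrrfip1, at 27.8, 31.7 and 34.2 FPKM against 26.0, 25.4 and 26.3 FPKM, had an interval of -0.29 to 0.80. Teddm1b, at 10.1, 9.70 and 9.73 FPKM against 10.5, 9.05 and 9.99 FPKM, had an interval of -0.76 to 0.76. Teddm1b varied less between libraries than that interval allows, since limma draws each gene's spread toward the spread of genes at its level.

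**Figure D2:**
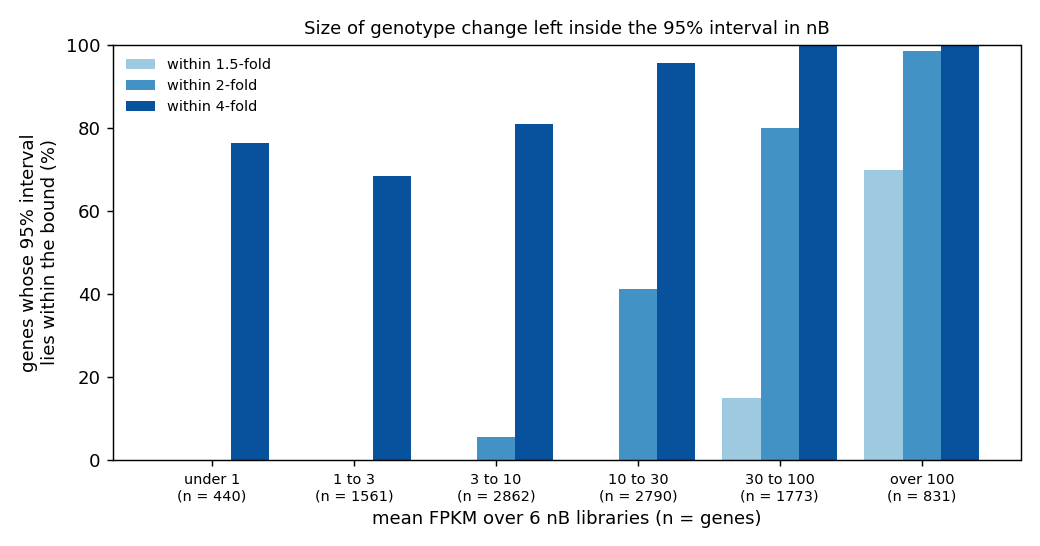
Share of tested genes (%) whose 95% interval of the genotype change lay within 1.5-fold, 2-fold or 4-fold, by mean FPKM over the 6 nB libraries. The 2-fold share rises from 0% below 3 FPKM to 98.4% above 100 FPKM.

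Across all genes, 3 of 10257 (0.0292%) passed, with an adjusted p of 0.05 or less in limma and a log2 difference of 1 or more, and all 3 were higher in Dnmt3-deficient nB. They were Trim12a, a member of the tripartite motif family of ubiquitin ligases, together with a pair of globins, Hba-a2 and Hbb-bs. At an unadjusted p under 0.05 in limma there were 526 genes (5.13%), of which 317 (3.09%) were higher and 209 (2.04%) lower. Every Dnmt3-deficient library lay above every Dnmt3-sufficient one for 506 genes (4.93%) and below for 470 (4.58%). These shares are the background for the counts of list members. The count that passed depended on the libraries. It was 0 without Dnmt3-deficient replicate 2 or 3, 1 without Dnmt3-sufficient replicate 2 or 3, 2 without Dnmt3-sufficient replicate 1 and 4 without Dnmt3-deficient replicate 1.

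**Figure D3:**
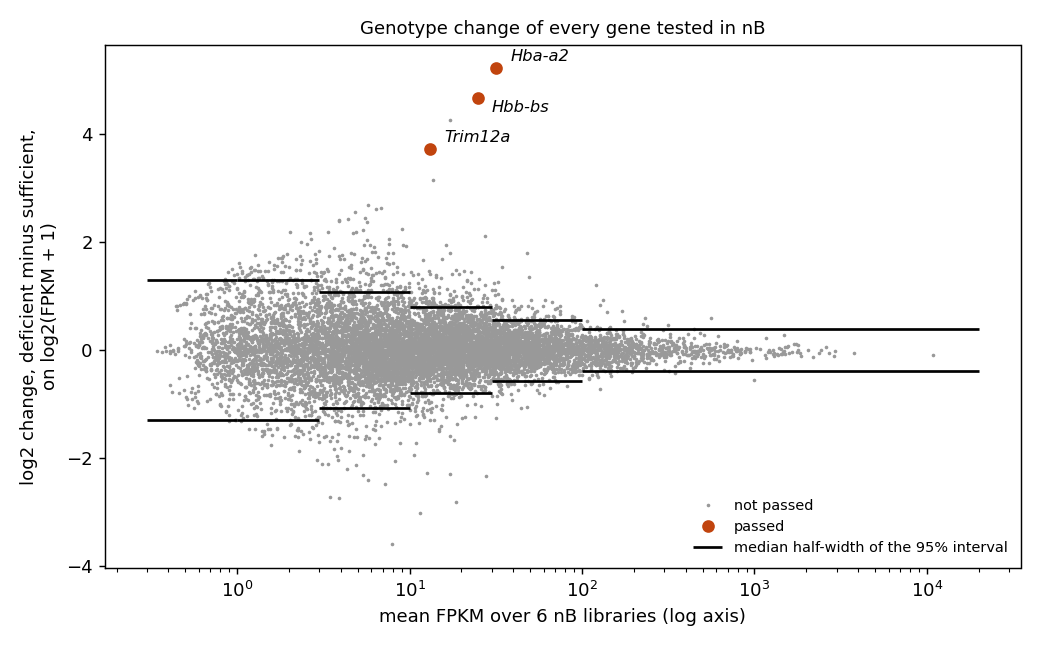
Genotype change (deficient minus sufficient, log2(FPKM + 1)) of all 10257 genes tested in nB against mean FPKM (log axis), with the median half-width of the 95% interval in each level range as black bars. Trim12a, Hba-a2 and Hbb-bs, the 3 genes that passed, lie at 3.71, 5.21 and 4.67, and the spread narrows with level.

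Trim12a has the Entrez number 76681 and spans 111448408 to 111463980 of chromosome 7 (mm9). Its level was 21.1, 30.3 and 24.1 FPKM with Dnmt3 lost, against 0.778, 1.09 and 1.06 FPKM in Dnmt3-sufficient libraries. Every Dnmt3-deficient library was far above every Dnmt3-sufficient one. The change was 3.71 on the log2 scale (SE 0.41, 95% interval 2.83 to 4.60, limma adjusted p = 0.0101, 0.00592 to 0.438 over the alternatives). The call was lost without Dnmt3-deficient replicate 2 (adjusted p = 0.285, limma) or replicate 3 (0.221), with the change at 3.58 and 3.74. Trim12a also stood apart in the other cell types. In GCB it was at 5.63, 9.45 and 3.65 FPKM against 0.0615, 0.0780 and 1.57 FPKM, and in BMPC at 6.49, 2.18 and 7.36 FPKM against 0.0791, 0 and 1.58 FPKM, without overlap in either. The interaction between nB and GCB was 1.46, with a limma adjusted p of 0.901.

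Trim12a lies in a cluster of related genes on chromosome 7, several of which interferon induces. Trim34a (chromosome 7, 111392971 to 111489207), whose span contains Trim12a on the opposite strand, was at 74.5, 52.5 and 96.6 FPKM against 24.8, 12.0 and 26.7 FPKM. It did not overlap between genotypes, by 1.80 on the log2 scale (SE 0.33, limma adjusted p = 0.343, 0.138 to 1 over the alternatives). The other cluster members, named here after their values were seen, differed less evenly. Trim30d was at 11.7, 4.21 and 13.5 FPKM against 0.915, 1.04 and 2.58 FPKM, and Trim12c at 52.6, 46.4 and 58.9 FPKM against 29.7, 35.3 and 44.5 FPKM, both without overlap. Trim30a was at 46.3, 40.1 and 50.9 FPKM against 40.3, 33.7 and 58.4 FPKM, and Trim30b at 8.36, 10.8 and 10.5 FPKM against 4.36, 3.76 and 9.41 FPKM, both with overlap. These genes resemble each other in sequence, a read that matched several could be placed on any of them, and no source says whether counting used the strand, so reads of one may be counted on another. Every Dnmt3-deficient mouse and no Dnmt3-sufficient mouse carried the Cre allele, so that allele with any DNA linked to it and loss of Dnmt3 cannot be told apart.

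Hba-a2 encodes alpha globin of red cells (Entrez 110257, 32196489 to 32197301 of chromosome 11 on mm9). Dnmt3-deficient replicates 1 to 3 held 11.7, 59.6 and 117 FPKM of it, against 0, 0.808 and 0 FPKM in Dnmt3-sufficient ones. Hbb-bs (Entrez 100503605), a beta globin, was at 10.8, 49.96 and 86.6 FPKM against 0.468, 0.614 and 0.348 FPKM. Both genes were highest in Dnmt3-deficient replicate 3, the male library, and lowest among these in replicate 1. The changes were 5.21 (SE 0.70) and 4.67 (SE 0.64) on the log2 scale, each with a limma adjusted p of 0.0326 (0.00226 to 0.936 over the alternatives). With Dnmt3-sufficient libraries set at 3 reads, the Dnmt3-deficient mean of Hbb-bs was at least 80.2-fold higher. This is a ratio of means, raised most by replicate 3, and not a bound for each library. Both calls were lost without any 1 of the 6 libraries other than Dnmt3-deficient replicate 1, and with sex as a covariate (adjusted p = 0.0646, limma). A further beta globin, Hbb-b1, was at 3.97, 27.4 and 71.8 FPKM against 0.237, 0 and 0.177 FPKM. Its Dnmt3-deficient mean was at least 55.4-fold higher, again raised most by replicate 3. Hbb-b1 passed in limma only without Dnmt3-deficient replicate 1 (adjusted p = 0.00837, against 0.343 with all libraries, 0.998 at the highest).

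Other red cell genes did not all follow the globins. Of 15 listed, 11 were in the table and 5 passed the filter, and 3 of these, the globins, had an unadjusted p under 0.05, where 3.09% of all genes were higher at that level. Alas2, which starts heme synthesis in red cells, was at 0, 1.51 and 14.1 FPKM against 0, 0 and 0.225 FPKM. Its Dnmt3-deficient libraries rose in the order of the globins, while the genotypes overlapped. Car2, a carbonic anhydrase, was at 61.9, 59.96 and 39.2 FPKM against 54.9, 54.9 and 45.8 FPKM, and the genotypes overlapped. Slc4a1, Klf1, Gata1 and Car1, which define red cells and their precursors, were at 0 in all 6 libraries, and Epb42 reached at most 0.0345 FPKM. The list summed to 88.4 to 329 FPKM in Dnmt3-deficient nB, 46.6 to 56.4 FPKM in Dnmt3-sufficient nB and 2669 to 10656 FPKM in BMPC. Car2 made up most of the Dnmt3-sufficient nB sums, which were 55.7, 56.4 and 46.6 FPKM in replicates 1 to 3. In GCB, Hba-a2 was at 0.1001, 0 and 0.109 FPKM against 2.40, 0 and 0 FPKM. Red cell lysis is described for spleen and bone marrow suspensions, and it is not stated for lymph nodes. The part of red cells in the globin values was not tested.

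**Figure D4:**
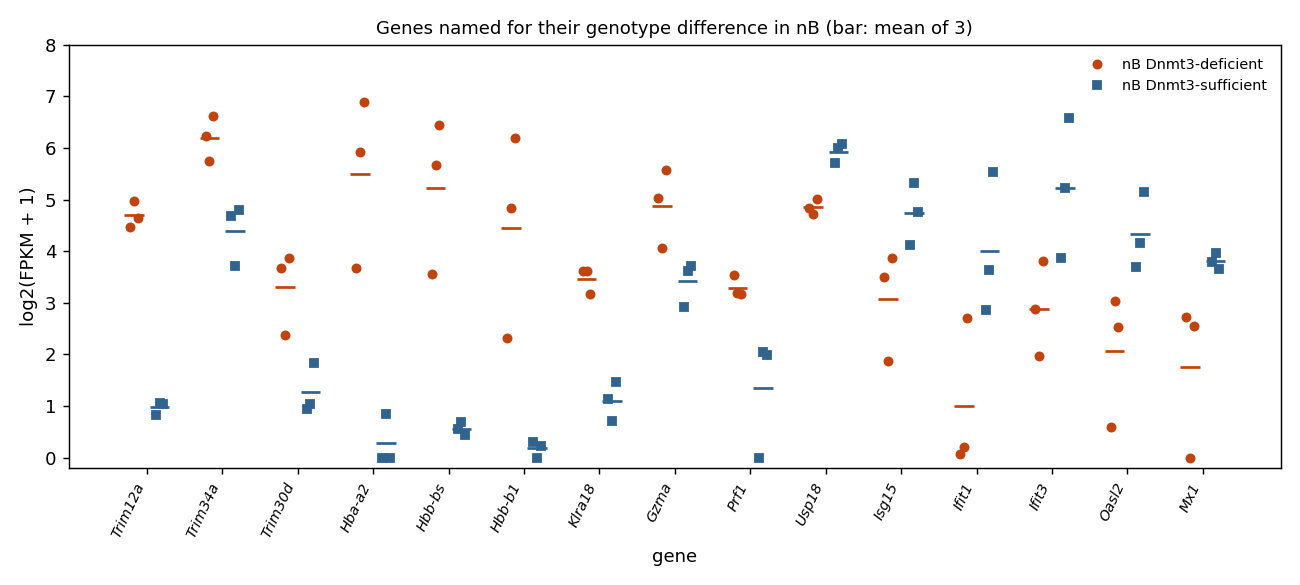
log2(FPKM + 1) of 15 genes named for their genotype difference, in the 3 Dnmt3-deficient (circles) and 3 Dnmt3-sufficient (squares) nB libraries, with bars at group means. Trim12a separates by 3.71, the globins spread widely among Dnmt3-deficient libraries, and the interferon-stimulated genes at the right, none of which passed, have lower means in Dnmt3-deficient libraries.

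Interferon-stimulated genes, the antiviral genes that type I interferon induces, gave no gene that passed, and their summed level overlapped between genotypes (exact two-sided permutation p = 0.3). Of 16 tested, 15 had a change below 0, with a median of -0.90 where all genes tested had 0.02. Among them 8 had a change below 0 with an unadjusted p under 0.05, against 2.04% of all genes, and 7 did not overlap, against 4.58%. The count at an unadjusted p under 0.05 ranged from 7 to 11 when any 1 library was left out and was 5 in a fit to all 18 libraries. The 8 genes were Usp18, Ifit1, Ifit2, Ifit3, Isg15, Oas1a, Oasl2 and Mx1.

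Many genes of this kind carry, just before the start site, the pair of GAAA repeats that interferon regulatory factors bind. The motif GAAANNGAAA (or TTTCNNTTTC on the other strand) was searched in the 250 bases before the start of RefSeq genes of GRCm38.p6. It was before a start of 936 of 27025 genes (3.46%), or in 978 of 32851 promoters (2.98%), and in 6 of the 11 list genes that matched. Of the 8 genes above, Ifit2 and Oasl2 matched and had none, while Usp18 and Mx1 did not match and were not searched. Outside the 8, Bst2 (a change of 0.27) and Rsad2 (-0.60), named after their values were seen, had it. Of the 8 genes, the 4 that carried the motif are shown, each with 2 or more copies, which overlap in Isg15 and Oas1a. The motif is in capitals and each sequence is on the strand of its gene.
Ifit1, chr19:34640777-34640821, + strand: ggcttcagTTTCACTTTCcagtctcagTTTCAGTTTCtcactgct
Ifit3, chr19:34583365-34583424, + strand: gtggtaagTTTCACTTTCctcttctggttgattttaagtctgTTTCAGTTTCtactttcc
Isg15, chr4:156200867-156200904, − strand: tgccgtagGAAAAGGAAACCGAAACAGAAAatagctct
Oas1a, chr5:120907526-120907553, − strand: cttctcggGAAATGGAAACTGAAAatct
The letters describe the promoters and not occupancy, and methylation was not analysed here.

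Usp18, which removes Isg15 from proteins and damps interferon signaling (Entrez 24110, chromosome 6, 121195924 to 121220934 on mm9), had the smallest p of the list. It was at 27.4, 25.3 and 31.3 FPKM in Dnmt3-deficient and 51.2, 62.6 and 66.4 FPKM in Dnmt3-sufficient libraries. Libraries within a genotype were close together and the genotypes lay far apart. The change was -1.07 (SE 0.23, 95% interval -1.58 to -0.56, limma adjusted p = 0.479, 0.362 to 1 over the alternatives). In GCB, Usp18 was at 21.2, 92.0 and 107 FPKM against 78.0, 31.3 and 24.97 FPKM, with overlap, and the interaction was -1.66 (limma adjusted p = 0.901).

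The effectors varied more between libraries. Ifit1, which binds viral RNA, was at 0.0474, 0.162 and 5.55 FPKM against 6.29, 11.4 and 45.4 FPKM, a change of -3.01 (SE 0.80). Ifit3, its partner, was at 6.33, 2.92 and 13.0 FPKM against 13.7, 36.2 and 94.1 FPKM, a change of -2.34. Oasl2, of the oligoadenylate synthetase family, was at 0.519, 7.23 and 4.797 FPKM against 12.0, 16.9 and 34.3 FPKM, a change of -2.27. Genotypes did not overlap for these 3 genes, and Dnmt3-sufficient replicate 3 was the highest library for each. Isg15, the ubiquitin-like modifier, was at 10.3, 2.64 and 13.7 FPKM against 16.4, 39.1 and 26.2 FPKM, and Mx1, a dynamin-like GTPase, at 5.65, 0 and 4.86 FPKM against 12.9, 14.6 and 11.6 FPKM. Both were also without overlap. Irf7, a factor that drives these genes, was at 95.3, 62.2 and 95.7 FPKM against 52.6, 166 and 294 FPKM, with overlap. Summed over the list, Dnmt3-deficient libraries held 489, 506 and 586 FPKM and Dnmt3-sufficient libraries 495, 859 and 1276 FPKM. Dnmt3-sufficient replicate 1 lay among the Dnmt3-deficient libraries.

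Markers of natural killer (NK) cells were higher in Dnmt3-deficient libraries in number but not in any gene that passed. All 10 were tested, all had a change above 0, and the median was 1.24. Ncr1, Klrk1, Gzma, Gzmb and Prf1 (5 genes) had an unadjusted p under 0.05, against 3.09% of all genes, and 3 did not overlap, against 4.93%. Gzma, a granule protease, was at 31.5, 15.6 and 46.5 FPKM against 6.55, 11.3 and 12.1 FPKM, and Prf1, perforin, at 10.6, 8.10 and 7.98 FPKM against 0, 3.14 and 2.98 FPKM. The list summed to 115, 153 and 170 FPKM against 68.3, 60.2 and 121 FPKM, which overlapped (exact two-sided permutation p = 0.2). The count of 5 fell to 3 when Dnmt3-deficient replicate 2 or 1 of the Dnmt3-sufficient replicates 1 and 2 was left out, and to 2 without Dnmt3-deficient replicate 3. In GCB the list summed to at most 2.41 FPKM. In BMPC it summed to 26.3 to 91.8 FPKM in Dnmt3-deficient and 93.4 to 171 FPKM in Dnmt3-sufficient libraries.

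Receptor genes of NK cells were also among those named outside the lists. Klra18, a lectin-like receptor of the Ly49 family found on NK cells, was at 11.2, 11.3 and 7.95 FPKM against 1.20, 0.627 and 1.78 FPKM. It did not overlap and was at 0 in all GCB and BMPC libraries. The change of 2.36 had a limma adjusted p of 0.413 in the fit to nB alone, with 0.99997 the highest over the alternatives. In a limma fit to all 18 libraries the adjusted p was 0.00339. That fit takes its spread also from the GCB and BMPC libraries at 0, so this p does not measure the spread among nB libraries. Klri2, a killer lectin-like receptor of another family, was at 1.95, 3.10 and 2.51 FPKM against 0, 0.0334 and 0.0569 FPKM. Its Dnmt3-deficient mean was at least 25.2-fold higher. Ccl8, a chemokine, was at 2.94, 4.74 and 2.82 FPKM against 1.17, 0 and 0 FPKM. Klri2 and Ccl8 also passed only in the fit to all 18 libraries, and Ccl8 too was at 0 in all GCB and BMPC libraries. In nB, NK cell markers were higher in the same genotype as these genes. In BMPC, where NK cell markers were present, Klra18 and Ccl8 were at 0. The part of NK cells in the result was not tested.

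Among the other genes with the smallest p whose genotypes did not overlap, none passed (limma adjusted p of 0.413 to 0.841). Higher in every Dnmt3-deficient library were Havcr1, which encodes the phosphatidylserine receptor Tim-1 (7.75, 17.8 and 6.55 FPKM against 0.855, 0 and 1.54 FPKM), and Cxcr3, a chemokine receptor of memory and effector lymphocytes (11.8, 19.7 and 5.94 FPKM against 2.42, 0 and 1.25 FPKM). Apoe, a lipid carrier made by macrophages among other cells, was at 49.4, 78.3 and 85.3 FPKM against 21.0, 34.9 and 25.7 FPKM. Dok2, an adaptor that damps receptor signaling, was at 9.04, 8.47 and 9.07 FPKM against 0.696, 1.75 and 0 FPKM. Among these, Dok2 had Dnmt3-deficient libraries closest to each other. Lower in every Dnmt3-deficient library were Rab30, a Golgi GTPase (16.9, 17.1 and 20.6 FPKM against 45.0, 37.9 and 51.6 FPKM), and Stk26, a kinase (0.761, 0.913 and 0.293 FPKM against 5.69, 7.74 and 4.92 FPKM). Sh2d1a, the adaptor SAP of T and NK cells, was at 0, 0.308 and 0 FPKM against 5.01, 3.11 and 14.8 FPKM. Its Dnmt3-deficient mean was at least 17.7-fold lower. Ifitm3, an interferon-induced barrier to virus entry, was at 2.32, 0 and 2.62 FPKM against 6.23, 15.7 and 16.3 FPKM. The small nucleolar RNA Rnu73b was at 0 in all Dnmt3-deficient libraries against 2.105, 22.1 and 23.5 FPKM in Dnmt3-sufficient ones, and it passed without Dnmt3-sufficient replicate 1 (limma adjusted p = 0.0219, against 0.413 with all libraries).

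T cell markers did not move together. Of 12 tested, 6 had a change above 0, and Cd4 alone, at 9.47, 2.61 and 6.29 FPKM against 0, 0 and 1.95 FPKM, had an unadjusted p under 0.05 (adjusted p = 0.856, limma). Over all genes, 3.09% were higher at that level. The summed level overlapped between genotypes (exact two-sided permutation p = 0.8). Markers of other B cell subsets did not move together either. Of 7 tested, 1 had a change above 0 and 2 below 0 at an unadjusted p under 0.05 in limma, against 3.09% and 2.04% of all genes. The median change over the list was 0.18. Cd9, a tetraspanin of marginal zone and B1 cells, was at 17.2, 38.9 and 12.7 FPKM against 0, 13.4 and 0 FPKM, a change of 3.15, with 1 Dnmt3-sufficient library inside the range of the Dnmt3-deficient ones. Those below 0, named after their values were seen, were Cd5, a surface marker of B1a and T cells (0.0605, 2.55 and 0 FPKM against 1.37, 3.54 and 5.97 FPKM, a change of -1.44), which overlapped, and Tbx21, a factor of T helper and age-associated B cells (0, 0 and 0.513 FPKM against 1.46, 1.33 and 1.87 FPKM, a change of -1.15), which did not. All 5 heat shock genes tested had intervals within 2-fold, with a median change of 0.22.

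**Figure D5:**
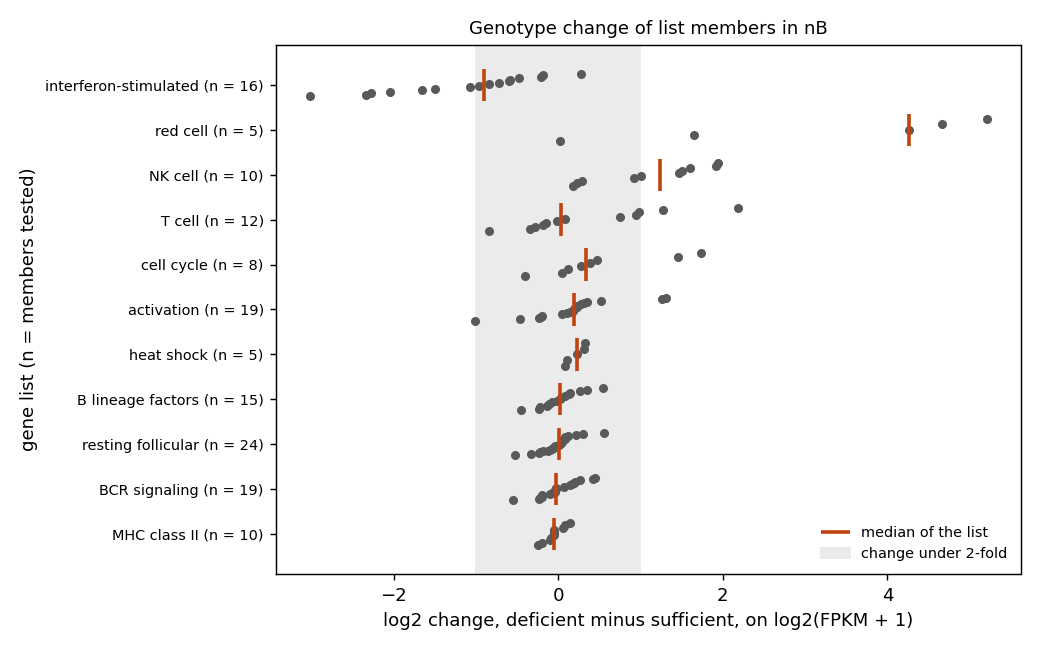
Genotype change (deficient minus sufficient, log2(FPKM + 1)) of each tested member of 11 gene lists in nB, with list medians as bars and changes under 2-fold shaded. Receptor, MHC class II and follicular genes lie inside the shading, the NK cell list has its median at 1.24, the red cell list has 3 globins above 4, and the interferon-stimulated list has its median at -0.90.

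The naive program was then defined within each genotype, as genes higher in nB than in both GCB and BMPC. Of 11522 genes tested in each genotype, 557 (4.83%) met this in Dnmt3-sufficient and 551 (4.78%) in Dnmt3-deficient cells, with 253 in both, 45.4% of the first set and 45.9% of the second. The 2 fits share no library. Of the 557, 538 were also higher in nB than in both other cell types in Dnmt3-deficient libraries, whether or not they passed there, and of the 551, 521 were so in Dnmt3-sufficient libraries. The share of all genes tested that were higher in nB by direction alone was not computed, so these 2 counts have no background. The share of 45.4% fell to 31.9% without Dnmt3-deficient replicate 1 or 3, where the Dnmt3-deficient set held 375 genes.

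Of the 253 genes in both sets, Ccr7 had the largest margin. Dnmt3-deficient nB held 175 ± 12.9 FPKM of it (SD, n = 3) and Dnmt3-sufficient nB 143 ± 21.3 FPKM, with GCB and BMPC means of at most 3.24 FPKM. S1pr1, the receptor that lets lymphocytes leave lymph nodes, held 103 ± 17.04 and 93.7 ± 6.20 FPKM in nB and no more than 4.16 FPKM elsewhere. Cd55, which protects cells from complement, was at 209 ± 26.1 and 237 ± 23.2 FPKM, and Cd38, an ectoenzyme that mouse germinal center cells lose, at 158 ± 18.2 and 170 ± 17.7 FPKM. Plaur, the urokinase receptor, was at 168 ± 11.5 and 161 ± 40.4 FPKM, and Hhex, a homeobox factor, at 111 ± 20.8 and 84.0 ± 23.4 FPKM. Each of these differences between genotypes was smaller than the summed SDs of the groups. Of the 24 follicular genes, 17 were in the Dnmt3-sufficient set, 13 in the Dnmt3-deficient set and 11 in both. Against BMPC, 23 and 22 of them were higher in nB, and against GCB, 17 and 15. The median genotype change in nB was -0.11 for the Dnmt3-sufficient set, 0.11 for the Dnmt3-deficient set and -0.02 for the genes of both. These medians describe sets that the same nB libraries chose, and carry no test.

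Whether the genotype change differed between nB and GCB was tested by the interaction over these 12 libraries. None of 11018 genes passed in limma (0%), with 596 at an unadjusted p under 0.05, and voom on recovered reads also gave 0, with 605. The smallest adjusted p, 0.374, was that of Hba-a2 (interaction 5.70 on the log2 scale). With 1 nB library left out, 2 genes passed without Dnmt3-sufficient replicate 2 (Cd9 and Rrm2), 1 without Dnmt3-deficient replicate 1 (Hba-a2) and 1 without Dnmt3-deficient replicate 3 (Polh). These 4 were named after their values were seen.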

How the data were processed

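RNA of sorted cells was reverse transcribed and amplified with a SMARTer kit (13 cycles), made into Nextera libraries (12 cycles) and sequenced as 50 bp paired ends. As the study's methods state, the authors mapped reads to mm9 with TopHat 2.1.1, allowing at most 1 reported alignment per read, and counted reads on UCSC KnownGenes exons with GenomicAlignments 1.6.3. Whether counting used the strand is not given in the sources used here. The deposited values are FPKM, computed by the authors from these counts, the summed exon length of a gene (deposited beside them) and the reads on listed genes. FPKM times exon length gave whole reads for 100% of values, to within 0.05 of a read. The authors' edgeR columns of fold changes and p-values were not used, nor were immunoglobulin genes. Certain genes are left out of the text. Depth was 6692516 to 8987922 reads per library. Counting error alone is covered by bounds at 3 reads.

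Here, log2(FPKM + 1) of the 6 nB libraries was fitted with limma 3.58.1 in R 4.3.3 (1 mean per genotype, variance moderated with a trend, two-sided, Benjamini-Hochberg adjustment) over genes that exceeded 1 FPKM in 2 or more libraries. Genes passed with an adjusted p up to 0.05 and a log2 difference of 1 or more. Equivalence was tested as 2 one-sided tests against a 2-fold change. The naive program used the 9 libraries of each genotype, the interaction 12 libraries, and summed levels an exact permutation test. Code was tested on simulated data. The study gives 6 mice as the source of its nB, which gave 6 libraries, in 3 experiments. Which library belongs to which experiment is not given in the sources used here.

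Named genes were Dnmt3a, Dnmt3b, those that passed, the 10 higher and 10 lower genes of smallest p without overlap, the 2 highest, the smallest-p and any member with p under 0.01 of each list, members of 5 lists, the gene of narrowest interval at each level, and 6 genes an earlier fit to all 18 libraries called. The members, lists and naming rule were chosen with earlier results of these data known. Alternatives changed the pseudocount, filter, scaling, fit, covariate, weights, threshold and libraries.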

Additional observations from a re-analysis of the deposited data

How the results depend on the processing

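The number of genes that passed between genotypes, 3, was 0 without the filter on low values (572 at an unadjusted p under 0.05), in female libraries alone (540), with voom on recovered reads (477), at an adjusted p of 0.01 and, chosen after seeing the data, with the filter over all 18 libraries (592). It was 1 with sex as a covariate or a quality weight per library and 6 in one limma fit to all 18 libraries, which adds Ccl8, Klra18 and Klri2. That fit takes its spread from GCB and BMPC libraries as well, where Ccl8 and Klra18 were at 0. Leaving out 1 library gave 0 to 4. The share of genes with an interval within 2-fold, 34.6%, was 15.8% in the fit to all 18 libraries and 17.9% with 99% intervals, and 24.7% to 30.3% with 1 library left out. The share of the naive program in both genotypes ran from 31.9% to 47.5% with 1 library left out. The interaction gave 1 gene (Ckap2) at a pseudocount of 0.1 and 0 to 2 with 1 library left out. The cause of these shifts was not tested. No gene named in the report with a call changed direction under any alternative run. Median of ratios scaling left the median change of all genes at 0.01. An edgeR test on recovered reads was planned and not run. No paired analysis was possible because the nB labels carry no replicate numbers shared between genotypes (those used here follow deposit order and pair no samples). With 3 libraries per genotype, changes of genes below 3 FPKM were not detectable within 2-fold at this depth, and low values of amplified cDNA vary between libraries.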
